A study of Mus musculus with 21 samples.

Results

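Wild-type hematopoietic stem cells (HSCs) from mice given bortezomib were compared with HSCs from mice given the vehicle, with 3 RNA-seq libraries in each group. These 6 libraries, chosen by their group labels, are 6 of the 21 in the series, and the comparison covers all genes: of 47729 rows in the count table, 16149 passed a filter on low counts and were tested. Each mouse was injected retro-orbitally on 2 occasions, 48 h and 24 h before analysis, with 10 mg/kg of bortezomib or with the vehicle, 10% DMSO. HSCs were taken from bone marrow as CD48-negative, CD150-positive cells of the LSK fraction, the lineage-negative cells that carry Sca-1 and Kit, and their RNA was made into SMART-seq2 libraries. Age, strain and sex are not given in the labels, and neither is whether the libraries of a group came from separate animals, so p-values measure only the spread between these libraries. The other libraries used here are 6 from mice labelled Mx1-Cre;Atg5fl/fl under the same 2 treatments, called knockout-labelled below, and 9 from untreated RFP-EGFP-LC3 reporter mice. In the knockout label Cre is driven by the interferon-responsive Mx1 promoter, and how it was induced is not given in the sources used here.

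The proteasome degrades ubiquitin-tagged proteins. Its barrel-shaped 20S core holds the proteolytic sites, and the 19S regulatory particle recognises, unfolds and feeds in substrates. Bortezomib binds the chymotrypsin-like site of the core, carried by the subunit Psmb5. In many cell types inhibition is followed by new synthesis of proteasome genes through the transcription factor NRF1, encoded by Nfe2l1. HSCs are mostly quiescent cells with a low rate of protein synthesis, and they are kept in that state by a set of transcription factors and by receptors for signals of their niche.

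Bortezomib changed 2508 of 16149 genes (15.5%), with 1287 higher (7.97%) and 1221 lower (7.56%) at an adjusted p under 0.05. Among them, 1103 differed by at least 2-fold, 459 higher and 644 lower. Genes of the proteasome, of cytosolic folding, of the respiratory chain, of the mitochondrial ribosome, of nucleotide supply and of the cell cycle were among those that rose. HSC transcription factors and receptors, chromatin regulators and interferon-response genes were among those that fell. The bortezomib libraries did not overlap the DMSO libraries for 5967 of the 16149 tested genes (36.9%), and for 2442 of the 2508 called genes. The number of calls rested on few libraries: it was 983, 731, 2762, 588, 1325 and 2076 with WT DMSO 1, 2, 3 and WT bortezomib 1, 2, 3 left out in turn. It was 1629 with the Xist share as a covariate and 3961 without the 3 libraries numbered 3 that stand apart (below). In the text, rose and fell are used of genes called in this comparison, CPM is counts per 1000000 after TMM scaling, and libraries are given in the order 1, 2, 3 of each group. List counts below stand beside the shares over all genes, 7.97% higher and 7.56% lower, and some lie near them.

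**Figure D1:**
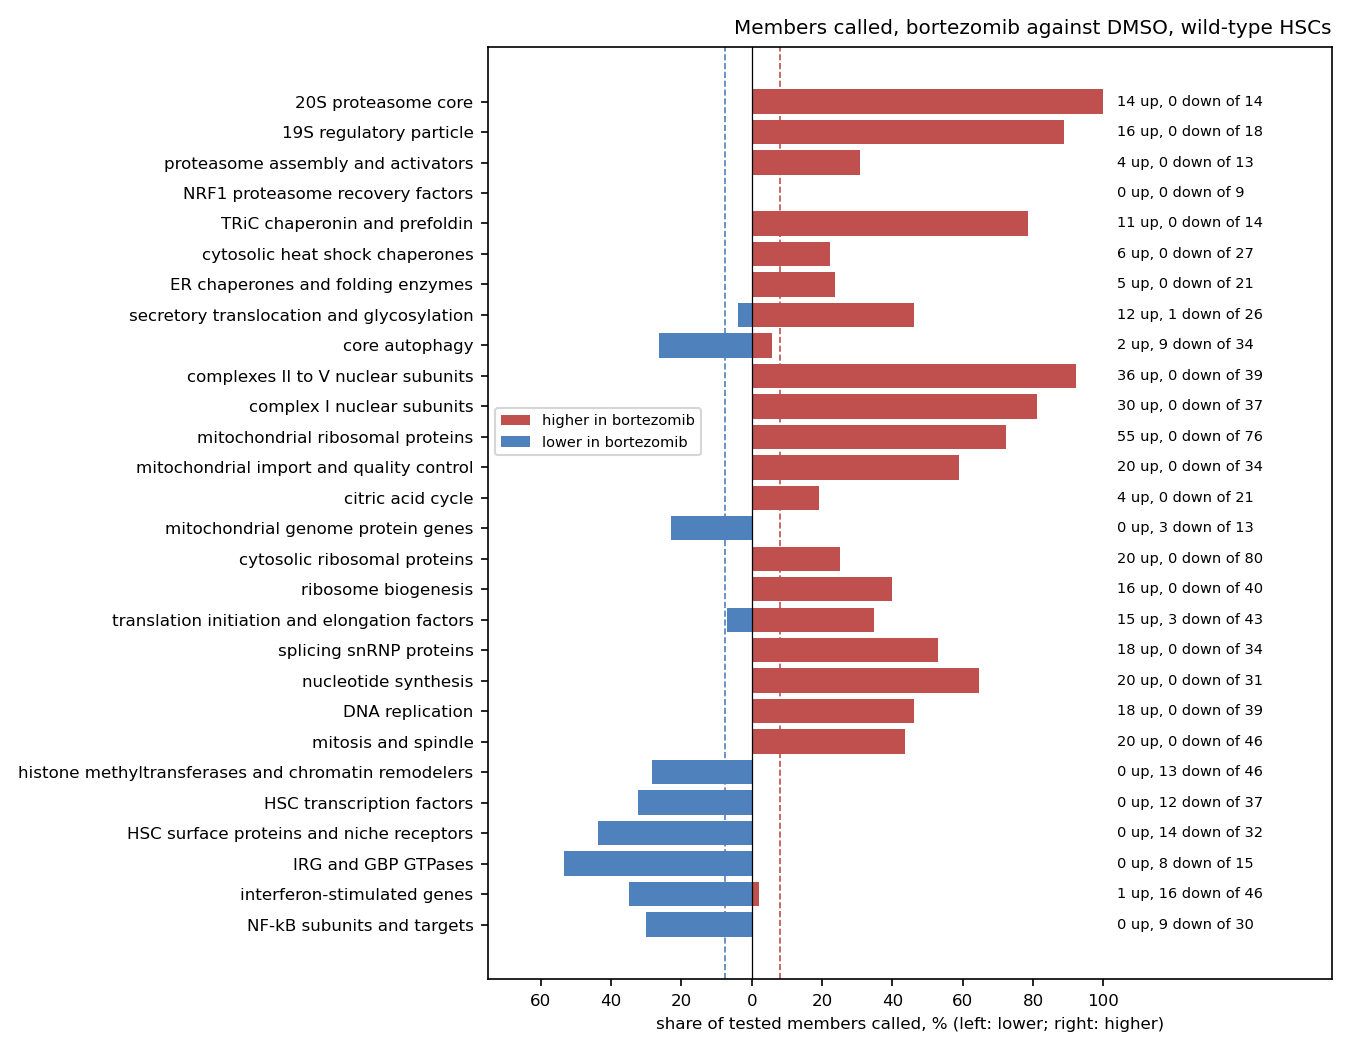
Share of tested members of each gene list called higher (red, to the right) or lower (blue, to the left) in bortezomib against DMSO in wild-type HSCs; dashed lines mark the shares over all 16149 genes, 7.97% higher and 7.56% lower. All 14 core proteasome genes were called higher and none of the 9 NRF1 pathway genes was called.

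The 6 libraries held between 18691529 and 31481691 counts, which puts 3 counts in a library at 0.0953 to 0.16 CPM. On the first principal component of the 6 libraries (38.5% of the variance) the DMSO libraries lay between -62.5 and -45.4 and the bortezomib libraries between 45.3 and 64.6, and WT bortezomib 3 lay apart on the second, at -76.5. On the third component of the 12 treatment libraries (10.7% of the variance) WT DMSO 3 lay at -65.2, knockout-labelled bortezomib 3 at -47.6 and WT bortezomib 3 at -38, and the other libraries between -3.12 and 38.2. Of the counts of Xist and the Y-linked Ddx3y combined, 99.2%, 98.6% and 59.98% were from Xist in DMSO and 46.4%, 31.8% and 90.3% in bortezomib, so the share of this female-expressed RNA differed between libraries of 1 group. TMM factors were 0.99 to 1.05 in DMSO and 0.875 to 0.904 in bortezomib. Transcript length moved with the treatment: the median log2 fold change was 0.31, 0.00, -0.12 and -0.25 from the shortest to the longest quartile of genes. Calls in these quartiles were 473 higher and 82 lower, 392 and 261, 259 and 402, and 161 and 473. With offsets for length and GC content the medians were 0.13, 0.08, 0.06 and 0.02, the calls were 1848 higher and 954 lower, and the median of all genes moved from -0.04 to 0.06. Its part in each result was not tested beyond this alternative, which is given below beside the lists in which it moved a count of rises or falls by over 1.5 times and by more than 1 gene.

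**Figure D2:**
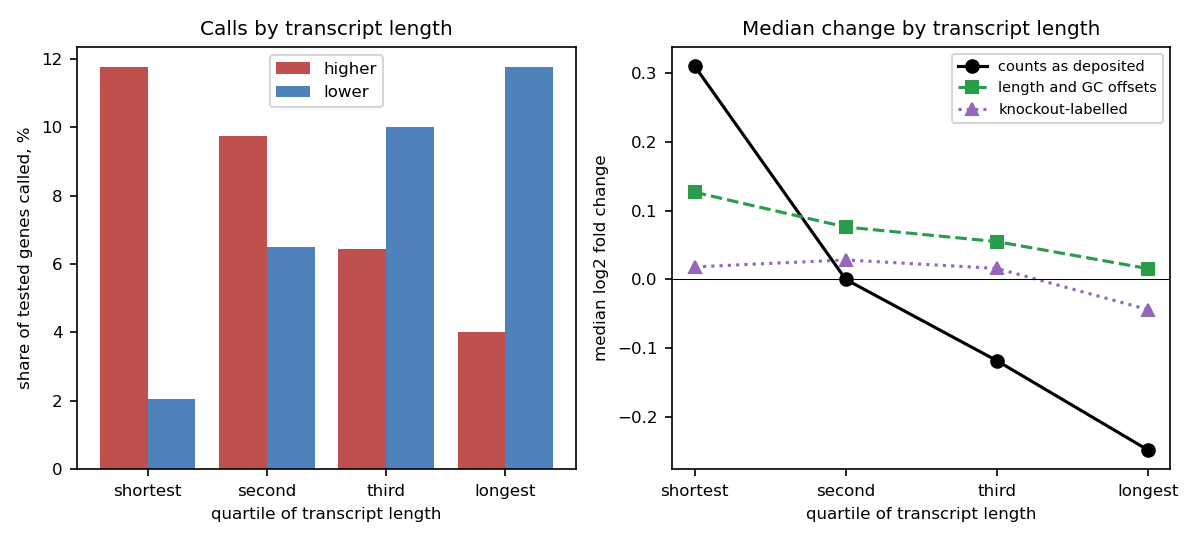
Left, share of tested genes called higher or lower in wild-type HSCs in each quartile of transcript length, 4022 or 4023 genes each. Right, median log2 fold change per quartile, which ran from 0.31 in the shortest to -0.25 in the longest genes with counts as deposited and from 0.13 to 0.02 with length and GC offsets.

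The sort could be checked against the sort genes. Kit, the stem cell factor receptor that defines the gate, was present at 1011, 975 and 697 CPM in DMSO and 378, 487 and 358 CPM in bortezomib, and fell (below). Ly6a, which encodes Sca-1, stood at 228, 297 and 416 CPM in DMSO and 335, 295 and 509 CPM in bortezomib and was not called (adjusted p = 0.466). Slamf1, which encodes CD150, stood at 48.1, 44.9 and 38.5 CPM in DMSO and 22.99, 27.4 and 32.3 CPM in bortezomib, with an adjusted p of 0.0269, and was not called without any one of WT DMSO 1, WT DMSO 2, WT bortezomib 1 and WT bortezomib 2 (adjusted p = 0.102, 0.0948, 0.14 and 0.0799). Cd48, whose protein the gate excludes, was low in DMSO and rose, from 11.3, 12.4 and 9.99 CPM in DMSO to 34.99, 30.2 and 54.3 CPM in bortezomib (log2 fold change 1.83 ± 0.38 SE, adjusted p = 0.00723), with no overlap between the groups. Its call held with each library left out.

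All 14 genes of the 20S core rose, with log2 fold changes from 0.90 to 1.30 and a median of 1.03. The count was 12, 11, 14, 13, 14 and 14 with WT DMSO 1, 2, 3 and WT bortezomib 1, 2, 3 left out in turn. Psmb5 (chromosome 14 in GRCm38, 54614119 to 54618022), the subunit that bortezomib binds, stood at 118, 107 and 152 CPM in DMSO and 285, 250.5 and 292 CPM in bortezomib. Every bortezomib library lay above every DMSO library, with log2 fold change 1.13 ± 0.23 SE, adjusted p = 0.00654. Psmb3, a structural beta subunit, had 180.1, 187 and 232 CPM in DMSO and 534, 444 and 496 CPM in bortezomib (log2 fold change 1.30 ± 0.18 SE, adjusted p = 0.00193). Psma7, an alpha-ring subunit, had 555, 543 and 909 CPM in DMSO and 1602, 1522 and 1732 CPM in bortezomib (log2 fold change 1.27 ± 0.24 SE, adjusted p = 0.00487). WT DMSO 3 was the highest of the DMSO libraries for all 3 of these genes.

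In the 19S particle 16 of 18 genes rose, with a median log2 fold change of 0.78. Psmd13, a lid subunit, had 142, 149 and 191 CPM in DMSO and 431, 440.3 and 363 CPM in bortezomib (log2 fold change 1.35 ± 0.20 SE, adjusted p = 0.00237). Psmd14, the lid enzyme that removes ubiquitin chains from substrates, had 223, 228 and 345 CPM in DMSO and 708, 636 and 623 CPM in bortezomib (log2 fold change 1.30 ± 0.21 SE, adjusted p = 0.00328). All 6 ATPases that thread substrates rose. The changes were, for Psmc1, Psmc2, Psmc3, Psmc4, Psmc5 and Psmc6, 0.64, 0.89, 0.83, 0.92, 1.01 and 1.07 on the log2 scale. The Psmc1 call was lost without WT DMSO 1, WT DMSO 2 or WT bortezomib 1 (adjusted p = 0.0505, 0.0619 and 0.0635). The count in the 19S particle was 10, 12, 14, 10, 15 and 13 with WT DMSO 1, 2, 3 and WT bortezomib 1, 2, 3 left out in turn, which moved it by over 1.5 times only without WT DMSO 1 or WT bortezomib 1.

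Other genes of the system that serves the proteasome were counted in the same way. Assembly chaperones and activators had 4 of 13 higher and none lower, and this count was 0, 0, 6, 0, 1 and 4 with WT DMSO 1, 2, 3 and WT bortezomib 1, 2, 3 left out in turn. Psme2, a subunit of the interferon-induced activator cap, was among the 4, at 232, 265 and 413 CPM in DMSO and 681, 641 and 596 CPM in bortezomib, but did not pass without WT DMSO 1, WT DMSO 2, WT bortezomib 1 or WT bortezomib 2 (adjusted p = 0.0981, 0.0964, 0.0765 and 0.0541). The immunoproteasome and antigen-processing list had 2 of 11 lower and none higher (0, 0, 2, 0, 1 and 2 lower with the same libraries left out, and 0 with the Xist share as a covariate), and its 3 catalytic subunits were not called: Psmb8 had 409, 443 and 572 CPM in DMSO and 687, 638 and 813 CPM in bortezomib (adjusted p = 0.0795), and Psmb9 and Psmb10 had adjusted p of 0.457 and 0.378. None of the 9 genes of the NRF1 recovery pathway was called by edgeR or DESeq2, against 5 by limma voom, and 2 had an unadjusted p under 0.05 in edgeR. Nfe2l1 stood at 89.6, 87.7 and 53.9 CPM in DMSO and 64.3, 52.3 and 50.4 CPM in bortezomib (log2 fold change -0.47, adjusted p = 0.14), and these ranges overlapped. Of 10 ubiquitin genes and activating (E1) enzymes 5 rose and 1 fell, with a median log2 fold change of 0.62, and 0, 0, 4, 0, 0 and 4 rose with WT DMSO 1, 2, 3 and WT bortezomib 1, 2, 3 left out in turn, and 1 with the Xist share as a covariate. Those that rose were Nae1, Uba3, Uba2 and Sae1, subunits of the enzymes that activate NEDD8 and SUMO, and Rps27a, a fusion of ubiquitin with a ribosomal protein, with log2 fold changes of 0.83, 0.68, 0.67, 0.57 and 0.84. The count of the list that fell was 0, 0, 1, 0, 0 and 0 with those libraries left out. The polyubiquitin gene Ubb had 938, 961 and 1071 CPM in DMSO and 744, 719 and 867 CPM in bortezomib, with an adjusted p of 0.109. Among cullin ligase subunits 5 of 20 rose (10 with length and GC offsets), among them the sugar-binding F-box gene Fbxo2, at 0.508, 0 and 0.289 CPM in DMSO and 12.3, 6.64 and 10.3 CPM in bortezomib (log2 fold change 5.20 ± 0.78 SE, adjusted p = 0.00237). Fbxo2 was nearly silent in DMSO and present in each bortezomib library. The cullin count was 2, 2, 6, 2, 4 and 6 with WT DMSO 1, 2, 3 and WT bortezomib 1, 2, 3 left out in turn.

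Promoter sequence was read for the proteasome genes because these genes rose together, and because NRF1 is known to bind antioxidant response elements. The search used the 2 core forms TGACNNNGC and TGAGNNNGC on both strands of 300 bases per gene, 250 before and 50 after the start, from RefSeq on GRCm38.p6. One or both forms were present in 7 of 11 core genes with an entry and in 5 of 15 19S genes, against 31.4% of the 10598 promoters matched to tested genes. The 4 core genes with an entry and no match had a median log2 fold change of 1.00, beside 1.13 for the 7 with one. The 250 bases before the start of the 2 called members with the smallest p that hold a match there are printed 5′ to 3′ on the gene's strand, with the match in capitals. They are Psmb3 (chr11:97703184-97703433, plus strand) and Psmb6 (chr11:70525107-70525356, plus strand).
Psmb3: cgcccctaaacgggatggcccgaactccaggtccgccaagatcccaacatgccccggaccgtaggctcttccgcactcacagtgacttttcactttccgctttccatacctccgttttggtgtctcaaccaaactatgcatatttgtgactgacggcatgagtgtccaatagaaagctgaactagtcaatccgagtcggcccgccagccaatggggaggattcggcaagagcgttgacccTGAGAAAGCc
Psmb6: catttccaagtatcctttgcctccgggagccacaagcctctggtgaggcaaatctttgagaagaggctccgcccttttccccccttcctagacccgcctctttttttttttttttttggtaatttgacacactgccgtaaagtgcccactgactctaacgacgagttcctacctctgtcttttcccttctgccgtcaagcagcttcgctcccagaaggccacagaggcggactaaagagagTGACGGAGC
In Psmb3 the match stood with 1 base between it and the start, and in Psmb6 it stood directly before the start. Psmb6, a catalytic beta subunit, had 327, 368 and 501 CPM in DMSO and 885, 871 and 867 CPM in bortezomib (log2 fold change 1.13 ± 0.21 SE, adjusted p = 0.00475).

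Cytosolic folding genes rose with the proteasome. TRiC is the ring-shaped chaperonin that folds actin, tubulin and other proteins, and prefoldin delivers substrates to it: 11 of their 14 genes rose, none fell, and the median log2 fold change was 0.77. Tcp1, the founding subunit, had 308, 306 and 359 CPM in DMSO and 728, 672 and 687 CPM in bortezomib (log2 fold change 1.10 ± 0.21 SE, adjusted p = 0.00474). Cct6a had 721, 625 and 765 CPM in DMSO and 1624, 1554 and 1400 CPM in bortezomib (log2 fold change 1.12 ± 0.23 SE, adjusted p = 0.00658). The lowest bortezomib library was above the highest DMSO library for both genes. Of 33 actin, tubulin and other cytoskeletal genes 12 rose and none fell, with Tubb4b at 325, 332 and 409.8 CPM in DMSO and 869.9, 757 and 808 CPM in bortezomib (log2 fold change 1.19 ± 0.18 SE, adjusted p = 0.0024) and Tuba1c at 66.3, 58.9 and 90.9 CPM in DMSO and 163, 124 and 158 CPM in bortezomib (log2 fold change 1.04 ± 0.19 SE, adjusted p = 0.00412). The TRiC count was 4, 3, 12, 4, 7 and 11 and the cytoskeletal count 5, 4, 16, 3, 9 and 8 with WT DMSO 1, 2, 3 and WT bortezomib 1, 2, 3 left out in turn.

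Of 27 cytosolic heat shock chaperones 6 rose and none fell (10 with length and GC offsets, 12 higher and 3 lower by limma voom). Ptges3, a co-chaperone of Hsp90, had 210.2, 203 and 236 CPM in DMSO and 468, 418 and 419.8 CPM in bortezomib (log2 fold change 1.01 ± 0.17 SE, adjusted p = 0.00353). Hspa8, the constitutive Hsp70 of the cytosol, had 787, 744 and 803 CPM in DMSO and 1469, 1396 and 1122 CPM in bortezomib (adjusted p = 0.0121), and its call was lost without WT DMSO 2 (adjusted p = 0.0631) and without WT bortezomib 1 (adjusted p = 0.0662). The stress-inducible Hsp70 genes were hardly detected: Hspa1a had 0, 0.310 and 0 CPM in DMSO and 1.61, 1.19 and 0 CPM in bortezomib, and Hspa1b had 0.305, 2.08 and 0 CPM in DMSO and 3.36, 4.59 and 0 CPM in bortezomib. Neither was called, and both were at 0 in WT bortezomib 3 as well as in at least 1 DMSO library. The heat shock count was 3, 3, 5, 2, 4 and 5 with WT DMSO 1, 2, 3 and WT bortezomib 1, 2, 3 left out in turn.

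In the endoplasmic reticulum, 5 of 21 chaperones and folding enzymes rose and none fell, and 12 of 26 genes of secretory translocation and glycosylation rose with 1 lower (10 and 20 higher with length and GC offsets). Manf, a secreted factor induced by reticulum stress, had 104, 99.5 and 145 CPM in DMSO and 258, 246 and 299 CPM in bortezomib (log2 fold change 1.20 ± 0.21 SE, adjusted p = 0.00379). Creld2 had 49.7, 43.98 and 35.3 CPM in DMSO and 80.5, 78.2 and 87.7 CPM in bortezomib (log2 fold change 0.93 ± 0.21 SE, adjusted p = 0.011). Ssr4, a subunit of the translocon-associated complex, had 176, 170.2 and 264 CPM in DMSO and 509, 450.1 and 388 CPM in bortezomib (log2 fold change 1.14 ± 0.20 SE, adjusted p = 0.00405). The 5 and the 12 became 4, 2, 5, 2, 4 and 4 and 1, 1, 13, 1, 5 and 10 with WT DMSO 1, 2, 3 and WT bortezomib 1, 2, 3 left out in turn.

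Of 21 stress genes downstream of ATF4 5 rose and 3 fell, and 13 were not called. The 5 that rose, Psat1, Phgdh, Asns, Mthfd2 and Slc7a5, serve amino acid supply and one-carbon metabolism, and Slc7a5, an amino acid transporter, had 60.1, 51.9 and 46.5 CPM in DMSO and 124, 123 and 85.9 CPM in bortezomib (log2 fold change 1.07 ± 0.24 SE, adjusted p = 0.00938). Without WT bortezomib 1 its adjusted p was 0.0542. The other 4 amino acid and one-carbon genes were each lost without WT DMSO 2 and without WT bortezomib 1. Without WT bortezomib 1 their adjusted p were 0.0511, 0.106, 0.0651 and 0.0984, in the order named. Among the 3 that fell, Ppp1r15a, which directs dephosphorylation of eIF2 alpha, had 69.7, 64.2 and 53.9 CPM in DMSO and 17.4, 21.3 and 21.97 CPM in bortezomib (log2 fold change -1.63 ± 0.28 SE, adjusted p = 0.00361). Trib3 had 35.2, 54.6 and 52.6 CPM in DMSO and 18.1, 16.7 and 26.6 CPM in bortezomib (log2 fold change -1.21 ± 0.25 SE, adjusted p = 0.00691). Ddit3, which encodes CHOP, had 23.3, 18.5 and 11.4 CPM in DMSO and 5.80, 6.26 and 6.46 CPM in bortezomib, the last not passing without WT DMSO 1 (adjusted p = 0.0545) or WT bortezomib 1 (adjusted p = 0.0557). The Ppp1r15a and Trib3 calls held with each library left out, but that of Trib3 was lost with all 21 libraries in the fit (adjusted p = 0.105). Atf4 itself had 71.6, 63.05 and 57.3 CPM in DMSO and 71.03, 67.5 and 71.1 CPM in bortezomib (adjusted p = 0.786). The count of ATF4 targets that rose was 2, 1, 5, 0, 3 and 4 with WT DMSO 1, 2, 3 and WT bortezomib 1, 2, 3 left out in turn, and that of targets that fell was 2, 3, 3, 2, 3 and 3.

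Among 21 NRF2 targets, 3 fell and 1 rose, against 3 and 4 with length and GC offsets and 3 and 6 by limma voom. The counts were 3, 3, 3, 1, 3 and 3 lower and 0, 0, 2, 0, 1 and 0 higher with WT DMSO 1, 2, 3 and WT bortezomib 1, 2, 3 left out in turn. Osgin1 fell from 41.8, 43.7 and 34.6 CPM in DMSO to 12.9, 11.3 and 9.34 CPM in bortezomib (log2 fold change -1.84 ± 0.27 SE, adjusted p = 0.00235). The heme oxygenase gene Hmox1 had 48.1, 34.5 and 27.4 CPM in DMSO and 61.9, 65.99 and 74.2 CPM in bortezomib (adjusted p = 0.0822). The quinone reductase gene Nqo1 had 27.6, 37.3 and 48.02 CPM in DMSO and 56.3, 45.5 and 83.7 CPM in bortezomib (adjusted p = 0.0717). Neither was called. Peroxiredoxins, thioredoxins and their partners had 6 of 18 higher and 1 lower. Thioredoxin, Txn1, rose from 511, 559 and 864 CPM in DMSO to 1706, 1566 and 1264 CPM in bortezomib (log2 fold change 1.23 ± 0.23 SE, adjusted p = 0.00485). Its inhibitor Txnip was the 1 that fell, from 1438, 1614 and 1316 CPM in DMSO to 411, 456 and 723 CPM in bortezomib (log2 fold change -1.46 ± 0.25 SE, adjusted p = 0.00379), with no overlap. Of these redox genes 1, 1, 8, 2, 4 and 6 rose with WT DMSO 1, 2, 3 and WT bortezomib 1, 2, 3 left out in turn.

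Autophagy, the route to the lysosome that takes up protein aggregates, did not rise as a group: 2 of 34 core genes rose and 9 fell, with a median log2 fold change of -0.22. Rb1cc1, a scaffold of the initiating kinase complex, had 96.2, 75.3 and 54.3 CPM in DMSO and 32.1, 35.9 and 27.2 CPM in bortezomib (log2 fold change -1.25 ± 0.25 SE, adjusted p = 0.00667). Atg14, a subunit of the lipid kinase that nucleates the membrane, had 55.2, 59.6 and 43.6 CPM in DMSO and 30.2, 24.3 and 24.6 CPM in bortezomib (log2 fold change -1.0 ± 0.21 SE, adjusted p = 0.00784). Vmp1, which acts at the contact of the forming membrane with the reticulum, rose from 126, 159 and 198 CPM in DMSO to 298, 301 and 301 CPM in bortezomib (log2 fold change 0.89 ± 0.18 SE, adjusted p = 0.00679). Atg5 had 54.95, 39.9 and 74.6 CPM in DMSO and 100.4, 72.2 and 135 CPM in bortezomib (adjusted p = 0.0302) and did not pass without WT DMSO 1, WT DMSO 2, WT bortezomib 1 or WT bortezomib 3 (adjusted p = 0.0997, 0.147, 0.088 and 0.13). Sqstm1, the receptor for ubiquitin-tagged aggregates, had 315, 378 and 272 CPM in DMSO and 195, 204 and 284 CPM in bortezomib and was not called (log2 fold change -0.50, adjusted p = 0.174); the ranges overlapped. Another receptor, Calcoco1, fell from 55, 57.9 and 27.3 CPM in DMSO to 11.1, 16.5 and 16.8 CPM in bortezomib (log2 fold change -1.66 ± 0.30 SE, adjusted p = 0.00421). Of 37 lysosomal genes 3 fell, near the 7.56% over all genes, and none rose. With length and GC offsets 1 was lower and 3 higher, and by limma voom 11 lower and 5 higher. The count of core autophagy genes that fell was 4, 2, 10, 4, 4 and 6 and that of lysosomal genes 0, 0, 3, 0, 1 and 3 with WT DMSO 1, 2, 3 and WT bortezomib 1, 2, 3 left out in turn.

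Nuclear genes of the mitochondrion rose on a broad front. Of 39 genes listed for respiratory complexes II to V, cytochrome c among them, 36 rose (median log2 fold change 0.97). Of complex I 30 of 37 subunits rose (median 0.92), and none was lower in either list. Cycs, which encodes cytochrome c, had 63.6, 51.6 and 76.7 CPM in DMSO and 238, 213 and 184 CPM in bortezomib (log2 fold change 1.72 ± 0.28 SE, adjusted p = 0.00327). Uqcrq, a small subunit of complex III, had 151, 156 and 266 CPM in DMSO and 592, 571 and 528 CPM in bortezomib (log2 fold change 1.56 ± 0.27 SE, adjusted p = 0.00405). Cox5a of complex IV, Atp5g3 of the ATP synthase and Ndufab1 of complex I changed by 1.31, 1.30 and 1.23 on the log2 scale. For Cycs, Uqcrq and Cox5a the 3 bortezomib libraries lay above the 3 DMSO libraries, and WT DMSO 3 was the highest DMSO library of each. Complexes II to V had 13, 11, 35, 11, 19 and 33 called, and complex I 5, 3, 31, 3, 18 and 29, with WT DMSO 1, 2, 3 and WT bortezomib 1, 2, 3 left out in turn. These are short transcripts, and with length and GC offsets 36 and 30 were called, with medians of 0.82 and 0.70.

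The mitochondrial ribosome had 55 of 76 genes higher and none lower, with a median of 0.78. Mrpl20, a protein of its large subunit, had 87.7, 93.6 and 117 CPM in DMSO and 291, 274 and 251 CPM in bortezomib (log2 fold change 1.45 ± 0.21 SE, adjusted p = 0.00207). Mitochondrial import and quality control had 20 of 34 higher and none lower. Tomm22 of the outer-membrane gate had 129, 142 and 175 CPM in DMSO and 302, 289.8 and 254 CPM in bortezomib (log2 fold change 0.92 ± 0.19 SE, adjusted p = 0.00654). Timm23 of the inner-membrane channel had 50.4, 51.3 and 76.96 CPM in DMSO and 133, 138 and 134 CPM in bortezomib (log2 fold change 1.18 ± 0.24 SE, adjusted p = 0.00732), and the prohibitin gene Phb2 had 234, 212 and 241 CPM in DMSO and 475, 444 and 418 CPM in bortezomib (log2 fold change 0.96 ± 0.17 SE, adjusted p = 0.00412). Slc25a5, the ADP/ATP carrier of the inner membrane, had 639.8, 646 and 824 CPM in DMSO and 2148, 1831 and 1767 CPM in bortezomib (log2 fold change 1.45 ± 0.28 SE, adjusted p = 0.00557). The ribosome count was 22, 15, 56, 15, 37 and 50 and the import count 12, 5, 22, 10, 15 and 18 with WT DMSO 1, 2, 3 and WT bortezomib 1, 2, 3 left out in turn.

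Transcripts of the mitochondrial genome did not rise with these nuclear genes. Of 13 protein genes 3 fell and none rose (9 lower with length and GC offsets), with a median log2 fold change of -0.44. mt-Nd5 had 624, 478 and 525 CPM in DMSO and 239, 244 and 329 CPM in bortezomib (log2 fold change -1.0 ± 0.18 SE, adjusted p = 0.00412). For mt-Nd6 the levels were 277, 196 and 231 CPM in DMSO and 87.4, 100 and 136 CPM in bortezomib (log2 fold change -1.12 ± 0.20 SE, adjusted p = 0.00405). All counts of the mitochondrial genome made up 1.20% to 1.69% of the DMSO libraries and 0.847% to 1.16% of the bortezomib libraries. In the citric acid cycle, which feeds electrons to the chain, 4 of 21 enzymes rose. Idh3a, a subunit of isocitrate dehydrogenase, had 202, 218 and 214 CPM in DMSO and 388, 369 and 389.9 CPM in bortezomib (log2 fold change 0.86 ± 0.19 SE, adjusted p = 0.0096), while Cs, citrate synthase, had 210.3, 209.6 and 164 CPM in DMSO and 270.4, 264 and 238 CPM in bortezomib (adjusted p = 0.134). Glycolysis had 5 of 22 higher and 1 lower, with Ldha, lactate dehydrogenase, at 1252, 1248 and 1518 CPM in DMSO and 3040, 2649 and 3045 CPM in bortezomib (log2 fold change 1.12 ± 0.24 SE, adjusted p = 0.00792). The cycle count was 1, 1, 4, 1, 2 and 4, the glycolysis count 3, 2, 4, 1, 4 and 5 and the count of mitochondrial transcripts that fell 2, 2, 2, 2, 2 and 4 with WT DMSO 1, 2, 3 and WT bortezomib 1, 2, 3 left out in turn.

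The nuclear respiratory factor site GCGCANGCG, searched on both strands in the same 300-base windows, was present in 12 of 30 promoters of complexes II to V, 8 of 33 of complex I and 16 of 67 of the mitochondrial ribosome, against 13.4% of tested promoters. Within complexes II to V the median log2 fold change was 0.97 with the site and 1.00 without it.

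Genes for making ribosomes and proteins rose as well. Ribosome biogenesis had 16 of 40 higher and none lower, and translation factors 15 of 43 higher and 3 lower (25 and 1 with length and GC offsets). Nhp2, a protein of the particles that modify ribosomal RNA, had 151, 132 and 184 CPM in DMSO and 485, 418 and 400.4 CPM in bortezomib (log2 fold change 1.48 ± 0.27 SE, adjusted p = 0.00412). Eif2s1, the subunit of initiation factor 2 that stress kinases phosphorylate, had 294, 285 and 384 CPM in DMSO and 848, 752 and 772 CPM in bortezomib (log2 fold change 1.30 ± 0.23 SE, adjusted p = 0.00412). Eif4a1, an initiation helicase, had 343, 324 and 375 CPM in DMSO and 729.9, 667 and 704 CPM in bortezomib (log2 fold change 1.01 ± 0.20 SE, adjusted p = 0.00652). Of 80 cytosolic ribosomal protein genes 20 rose and none fell, with a median of 0.54. Rpl27 had 297, 290.1 and 444 CPM in DMSO and 769.6, 756 and 701 CPM in bortezomib (log2 fold change 1.11 ± 0.20 SE, adjusted p = 0.00418), and its call held with each library left out. WT DMSO 3 lay between the other DMSO libraries and the bortezomib libraries for Rpl27, and without the 3 libraries numbered 3 the count of ribosomal proteins was 69, against 10 with the Xist share as a covariate and 74 by limma voom. With WT DMSO 1, 2, 3 and WT bortezomib 1, 2, 3 left out in turn it was 1, 1, 53, 1, 4 and 12, that of ribosome biogenesis 6, 3, 7, 3, 7 and 9 and that of translation factors 7, 6, 17, 5, 10 and 12. Many ribosomal protein genes have near-identical processed pseudogenes, and 29 of 1056 tested processed pseudogenes rose and 1 fell, so the split of reads between such copies is uncertain.

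RNA processing genes were tested in separate lists. Proteins of the splicing particles had 18 of 34 higher and none lower, with Snrpd1 of the Sm ring at 140.0, 127 and 187 CPM in DMSO and 462, 405 and 352 CPM in bortezomib (log2 fold change 1.43 ± 0.26 SE, adjusted p = 0.00413). Phf5a of the SF3b complex had 64, 69.2 and 92.4 CPM in DMSO and 182, 174 and 163 CPM in bortezomib (log2 fold change 1.20 ± 0.18 SE, adjusted p = 0.00238). SR proteins and their kinases had 8 of 24 higher and 3 lower (10 of each by limma voom). Srsf7 had 549, 519 and 638 CPM in DMSO and 1484, 1413 and 1317 CPM in bortezomib (log2 fold change 1.30 ± 0.23 SE, adjusted p = 0.00412). Tra2b had 187, 154 and 198 CPM in DMSO and 442, 346 and 397 CPM in bortezomib (log2 fold change 1.13 ± 0.17 SE, adjusted p = 0.00237). Srsf10 had 156, 119.6 and 138 CPM in DMSO and 324, 263 and 282 CPM in bortezomib (log2 fold change 1.07 ± 0.16 SE, adjusted p = 0.00237). None of the 3 overlapped between the groups. Ddx39, a helicase of messenger RNA export, had 147, 142 and 166 CPM in DMSO and 556, 483 and 378 CPM in bortezomib (log2 fold change 1.64 ± 0.23 SE, adjusted p = 0.00193). The splicing-particle count was 10, 7, 18, 7, 9 and 16 and the SR counts 6, 6, 6, 5, 6 and 7 higher and 1, 0, 8, 0, 2 and 0 lower with WT DMSO 1, 2, 3 and WT bortezomib 1, 2, 3 left out in turn, and the first was 10 with the Xist share as a covariate.

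Cell-cycle genes were higher in bortezomib. Nucleotide synthesis had 20 of 31 higher, DNA replication 18 of 39 and mitosis 20 of 46, with none lower in any of these lists. At the entry to S phase, the E-type cyclin Ccne1 had 8.54, 6.46 and 10.8 CPM in DMSO and 43.9, 40.2 and 24.1 CPM in bortezomib (log2 fold change 2.07 ± 0.41 SE, adjusted p = 0.00599). Ccne2, the other E-type cyclin, had 64.9, 56.1 and 84.2 CPM in DMSO and 217, 205 and 150.4 CPM in bortezomib (log2 fold change 1.48 ± 0.29 SE, adjusted p = 0.00573). For DNA precursors, Ctps, CTP synthase, had 76.3, 57.6 and 49.95 CPM in DMSO and 148, 115 and 154 CPM in bortezomib (log2 fold change 1.18 ± 0.26 SE, adjusted p = 0.00882). At the fork, Rfc5, a subunit of the clamp loader, had 178, 192 and 219.6 CPM in DMSO and 432, 390.4 and 338 CPM in bortezomib (log2 fold change 0.98 ± 0.19 SE, adjusted p = 0.0055). In mitosis, Cdk1 had 101.6, 110.4 and 139.6 CPM in DMSO and 297, 300.4 and 220.5 CPM in bortezomib (log2 fold change 1.22 ± 0.21 SE, adjusted p = 0.00361). Ccnb1, its cyclin, had 52.5, 52.9 and 58.8 CPM in DMSO and 177, 169 and 85.2 CPM in bortezomib (log2 fold change 1.39 ± 0.26 SE, adjusted p = 0.00487). Birc5, of the chromosomal passenger complex, had 66.8, 78.05 and 95.6 CPM in DMSO and 237, 259 and 126 CPM in bortezomib (log2 fold change 1.37 ± 0.25 SE, adjusted p = 0.00421). WT bortezomib 3 was the lowest of the bortezomib libraries for all 3 mitotic genes and still above the DMSO libraries. Mki67, a widely used proliferation marker, had 19.2, 13.7 and 4.30 CPM in DMSO and 10.8, 14.4 and 8.80 CPM in bortezomib and was not called (adjusted p = 0.908), with overlapping groups. Rbl2, a pocket protein that represses cell-cycle genes in quiescence, fell from 135, 119 and 109 CPM in DMSO to 62.9, 68.96 and 73.6 CPM in bortezomib (log2 fold change -0.82 ± 0.15 SE, adjusted p = 0.00412).

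The mitosis count was 9, 6, 17, 6, 7 and 27, that of replication 6, 1, 16, 1, 7 and 17 and that of nucleotide synthesis 4, 2, 16, 2, 9 and 16 with WT DMSO 1, 2, 3 and WT bortezomib 1, 2, 3 left out in turn. Without the 3 libraries numbered 3 the mitosis count was 33, and with the Xist share as a covariate the replication and nucleotide counts were 10 and 13. Hist1h1b, a linker histone gene whose transcript is made in S phase, had 3.20, 9.82 and 7.002 CPM in DMSO and 31.3, 31.8 and 16.9 CPM in bortezomib (log2 fold change 2.00 ± 0.43 SE, adjusted p = 0.00861). Of 24 p53 targets, 3 rose and 5 fell, and with length and GC offsets 5 rose and 3 fell. With the same libraries left out in turn 0, 1, 3, 0, 1 and 2 rose and 4, 2, 4, 1, 2 and 5 fell. Gadd45a fell from 15.4, 17.96 and 13.1 CPM in DMSO to 3.58, 2.05 and 6.86 CPM in bortezomib (log2 fold change -1.89 ± 0.36 SE, adjusted p = 0.00487). Trp53 itself had 336, 358 and 317 CPM in DMSO and 380.3, 353 and 345 CPM in bortezomib (adjusted p = 0.76). Chek1, the checkpoint kinase of replication stress, rose from 40.5, 36.9 and 35.5 CPM in DMSO to 85.1, 87.5 and 107 CPM in bortezomib (log2 fold change 1.31 ± 0.29 SE, adjusted p = 0.00923), in a repair list with 5 of 28 higher and none lower. The repair count was 1, 2, 4, 2, 3 and 7 with those libraries left out in turn, 9 with length and GC offsets and 15 by limma voom.

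Promoters of the mitosis and replication lists held different letters. The cell cycle homology region TTTGAA, searched on both strands, was present in 28 of 40 mitosis promoters and 4 of 32 replication promoters, against 12% of tested promoters. An E2F site in either of the forms TTGGCGC and TTCCCGC was present in 6 mitosis and 18 replication promoters, against 12.3%. Within the mitosis list, 8 of 28 genes with TTTGAA and 9 of 12 without it were called. These matches describe the gene lists and are not evidence that a factor was bound. Cdk1 (chr10:69352913-69353162, minus strand) and Cks1b (chr3:89418292-89418541, minus strand), the 2 called mitosis genes with the smallest p that hold TTTGAA before the start, are printed 5′ to 3′ on the gene's strand with each match, on either strand, in capitals.
Cdk1: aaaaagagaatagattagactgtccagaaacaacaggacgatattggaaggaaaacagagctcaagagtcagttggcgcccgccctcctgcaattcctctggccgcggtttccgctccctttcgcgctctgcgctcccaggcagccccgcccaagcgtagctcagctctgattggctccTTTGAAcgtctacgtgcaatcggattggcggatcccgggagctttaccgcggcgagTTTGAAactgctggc
Cks1b: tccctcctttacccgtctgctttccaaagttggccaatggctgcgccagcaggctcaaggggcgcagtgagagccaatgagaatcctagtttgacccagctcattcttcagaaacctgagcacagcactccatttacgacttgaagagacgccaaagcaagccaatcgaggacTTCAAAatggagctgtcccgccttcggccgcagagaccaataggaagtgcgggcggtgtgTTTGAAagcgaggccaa
Each holds 2 matches, the last with 9 bases between it and the start in Cdk1 and 11 in Cks1b. Cks1b, a small adaptor of cyclin-dependent kinases, had 159.9, 149 and 222 CPM in DMSO and 482, 427 and 312 CPM in bortezomib (adjusted p = 0.00841) and did not pass without WT DMSO 2 (adjusted p = 0.0519) or without WT bortezomib 1 (adjusted p = 0.0519).

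Genes that define the stem cell fell. Of 15 HSC-defining markers 11 fell and none rose, with a median log2 fold change of -0.68. The summed level of the 15 was 4371, 4645 and 4197 CPM in DMSO and 2517, 2761 and 2907 CPM in bortezomib. In bulk samples fewer such cells and less RNA per cell cannot be told apart. Kit (chromosome 5 in GRCm38, 75574916 to 75656722) had 1011, 975 and 697 CPM in DMSO and 378, 487 and 358 CPM in bortezomib (log2 fold change -1.13 ± 0.19 SE, adjusted p = 0.00367). Tek, the angiopoietin receptor of quiescent HSCs, had 73.05, 92.3 and 58.1 CPM in DMSO and 29.1, 32.4 and 24.1 CPM in bortezomib (log2 fold change -1.39 ± 0.19 SE, adjusted p = 0.00193), and its ligand Angpt1 had 871, 725 and 644 CPM in DMSO and 330.5, 328 and 322 CPM in bortezomib (log2 fold change -1.19 ± 0.16 SE, adjusted p = 0.00193). Neither gene overlapped between the groups. Of 32 HSC surface proteins and niche receptors 14 fell and none rose. Robo4, a guidance receptor, fell from 57.4, 52.4 and 37.8 CPM in DMSO to 14.96, 18.3 and 20.03 CPM in bortezomib (log2 fold change -1.47 ± 0.24 SE, adjusted p = 0.00328). Alcam, an adhesion receptor, fell from 34.8, 35.7 and 34.2 CPM in DMSO to 12.7, 15.9 and 7.80 CPM in bortezomib (log2 fold change -1.53 ± 0.30 SE, adjusted p = 0.00533).

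**Figure D3:**
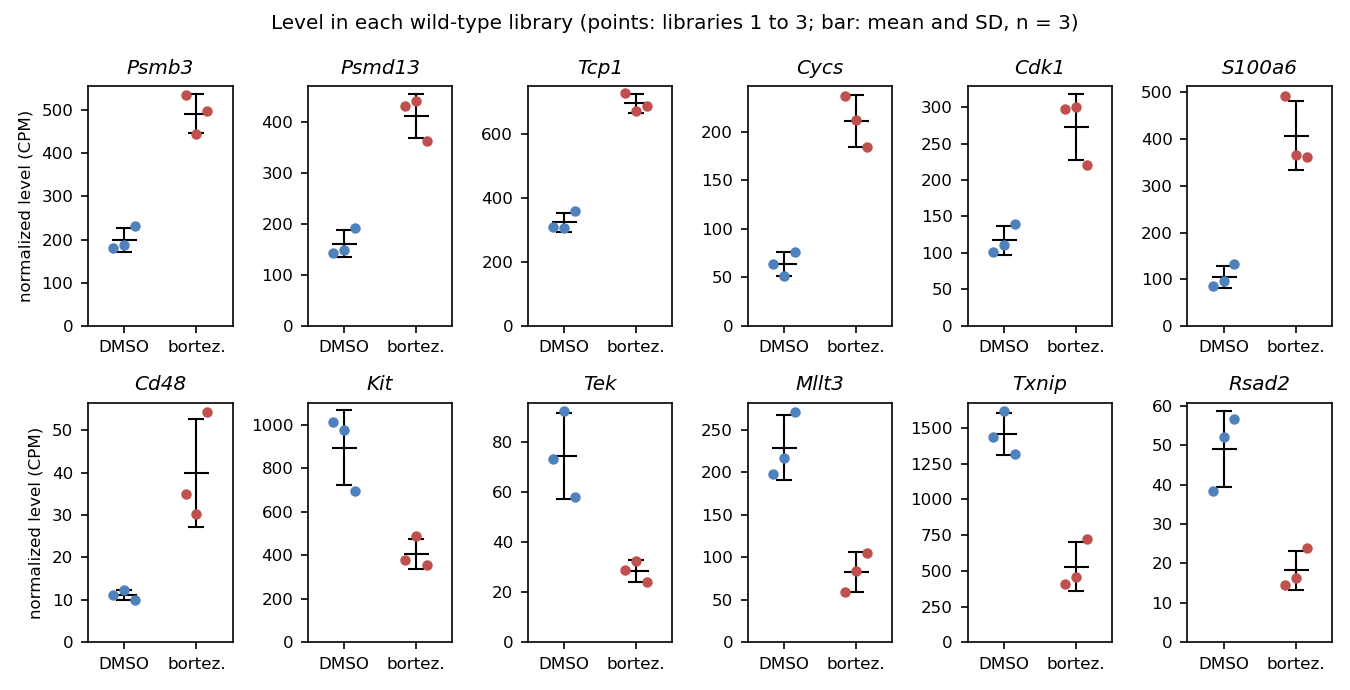
Level of 12 genes in each of the 6 wild-type libraries in CPM, with the mean and SD of the 3 libraries per group; each vertical axis starts at 0. In none of the 12 did the bortezomib libraries overlap the DMSO libraries, and WT bortezomib 3 was the lowest bortezomib library for Cdk1 and the highest for Cd48 and Txnip.

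Of 37 HSC transcription factors 12 fell and none rose, with a median of -0.52. Mllt3, a cofactor that maintains HSC identity, had 198, 217 and 271 CPM in DMSO and 58.9, 84.2 and 105 CPM in bortezomib (log2 fold change -1.47 ± 0.26 SE, adjusted p = 0.00412). Mecom, required for HSC self-renewal, had 178, 173 and 130.3 CPM in DMSO and 84.3, 94.5 and 68.6 CPM in bortezomib (log2 fold change -0.96 ± 0.20 SE, adjusted p = 0.00671), and the homeobox gene Nkx2-3 had 96.6, 111 and 86.98 CPM in DMSO and 45.7, 58.05 and 38.7 CPM in bortezomib (log2 fold change -1.05 ± 0.18 SE, adjusted p = 0.00361). Hlf, a marker factor of HSCs, had 368, 384 and 383 CPM in DMSO and 182, 232 and 214 CPM in bortezomib (adjusted p = 0.00825) and did not pass without WT bortezomib 1 (adjusted p = 0.0548). With WT DMSO 1, 2, 3 and WT bortezomib 1, 2, 3 left out in turn, 7, 6, 11, 4, 8 and 10 factors, 9, 8, 14, 8, 10 and 12 surface genes and 7, 5, 9, 4, 7 and 8 defining markers fell.

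Among histone methyltransferases and chromatin remodelers 13 of 46 fell and none rose, with a median of -0.60. Ezh1, a methyltransferase of the Polycomb complex in quiescent cells, had 69.3, 95.6 and 61.7 CPM in DMSO and 29.2, 30.7 and 31.6 CPM in bortezomib (log2 fold change -1.31 ± 0.21 SE, adjusted p = 0.00329). Kmt2e had 153, 132 and 109 CPM in DMSO and 53.8, 64.05 and 46.1 CPM in bortezomib (log2 fold change -1.26 ± 0.21 SE, adjusted p = 0.00353). Smarca2, an ATPase of the BAF complex, had 233, 201 and 139.5 CPM in DMSO and 76.4, 102.1 and 67.8 CPM in bortezomib (log2 fold change -1.22 ± 0.21 SE, adjusted p = 0.00379). These are long transcripts, and with length and GC offsets 7 fell and 1 rose, with a median of -0.26. The count was 6, 6, 14, 5, 8 and 9 with WT DMSO 1, 2, 3 and WT bortezomib 1, 2, 3 left out in turn.

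Interferon-response genes fell. Of 46 interferon-stimulated genes 16 fell and 1 rose, and of 15 interferon-inducible GTPases of the IRG and GBP families 8 fell and none rose, with medians of -0.56 and -1.31. Rsad2, which encodes the antiviral enzyme viperin, had 38.3, 51.99 and 56.7 CPM in DMSO and 14.5, 16.3 and 23.96 CPM in bortezomib (log2 fold change -1.43 ± 0.29 SE, adjusted p = 0.00648). Ddx58, which encodes the RNA sensor RIG-I, fell from 90.6, 126 and 94.3 CPM in DMSO to 46.7, 48.6 and 53.3 CPM in bortezomib (log2 fold change -1.06 ± 0.22 SE, adjusted p = 0.00714). Ifih1, which encodes the sensor MDA5, fell from 32.2, 31.2 and 27.2 CPM in DMSO to 16.8, 16.9 and 13.2 CPM in bortezomib (log2 fold change -0.95 ± 0.20 SE, adjusted p = 0.00821). Gbp10 had 176 counts in the 3 DMSO libraries together and 0 in the 3 bortezomib libraries, which against a floor of 3 counts over the group is at least 49.2-fold lower. Gbp2 had 98.6, 104 and 107 CPM in DMSO and 38.2, 44.8 and 41.5 CPM in bortezomib, with an adjusted p of 0.00882, and did not pass without WT bortezomib 1 (adjusted p = 0.052). Not all genes of the list moved this way: Ifitm1, a transmembrane restriction factor, had 962, 1026 and 1545 CPM in DMSO and 2082, 1668 and 1943 CPM in bortezomib (adjusted p = 0.0711). Its relative Ifitm3 had 775, 853 and 1092 CPM in DMSO and 1368, 1198 and 1416 CPM in bortezomib (adjusted p = 0.0676). The count of interferon-stimulated genes that fell was 9, 5, 13, 4, 7 and 17 and that of the GTPases 5, 6, 6, 1, 5 and 7 with WT DMSO 1, 2, 3 and WT bortezomib 1, 2, 3 left out in turn, and the first was 9 with the Xist share as a covariate.

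Upstream of these genes, 7 of 29 interferon receptors and JAK-STAT genes fell and none rose. Stat4 had 104, 94.1 and 86.1 CPM in DMSO and 42.7, 58.6 and 41.8 CPM in bortezomib (log2 fold change -0.99 ± 0.18 SE, adjusted p = 0.00439). Irf2, a regulator of interferon responses in HSCs, had 181, 164 and 160.1 CPM in DMSO and 61.9, 62.8 and 68.5 CPM in bortezomib (log2 fold change -1.39 ± 0.16 SE, adjusted p = 0.00193). Of 30 NF-kB subunits and targets 9 fell and none rose, with Birc3, an inhibitor of apoptosis and ubiquitin ligase, at 40.3, 46.2 and 41.3 CPM in DMSO and 19.7, 20.9 and 21.8 CPM in bortezomib (adjusted p = 0.00937; 0.0532 without WT bortezomib 1). Klf6, an early-response factor, fell from 101.2, 101.8 and 108 CPM in DMSO to 50.4, 52.1 and 58.5 CPM in bortezomib (log2 fold change -0.95 ± 0.17 SE, adjusted p = 0.00412), with an adjusted p of 0.0528 with all 21 libraries in the fit. The JAK-STAT count was 2, 1, 9, 1, 4 and 6 and the NF-kB count 6, 2, 9, 1, 6 and 9 with WT DMSO 1, 2, 3 and WT bortezomib 1, 2, 3 left out in turn.

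The interferon-stimulated response element GAAANNGAA, searched on both strands, was present in 19 of 35 promoters of interferon-stimulated genes and in all 9 GTPase promoters with an entry, against 7.31% of tested promoters. The interferon-stimulated genes with it had a median log2 fold change of -0.65 and those without it -0.54. Rsad2 (chr12:26456453-26456702, minus strand) and Ifih1 (chr2:62646256-62646505, minus strand), the 2 called genes with the smallest p that hold it before the start, are printed 5′ to 3′ on the gene's strand, with the match in capitals as its reverse complement.
Rsad2: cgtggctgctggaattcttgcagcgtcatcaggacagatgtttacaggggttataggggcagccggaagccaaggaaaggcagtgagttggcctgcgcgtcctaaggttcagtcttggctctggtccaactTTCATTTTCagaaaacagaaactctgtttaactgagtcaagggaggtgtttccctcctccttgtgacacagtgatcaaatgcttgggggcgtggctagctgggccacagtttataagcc
Ifih1: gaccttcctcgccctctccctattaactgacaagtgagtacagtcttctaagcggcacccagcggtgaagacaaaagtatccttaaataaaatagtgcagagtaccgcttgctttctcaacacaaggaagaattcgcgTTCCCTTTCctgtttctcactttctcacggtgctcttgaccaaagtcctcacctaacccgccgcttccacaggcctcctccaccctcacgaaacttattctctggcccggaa
There were 110 bases between the match and the start in Rsad2 and 103 in Ifih1.

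Among called genes whose higher group reached 20 CPM and whose groups did not overlap, the largest rises included 2 calcium-binding S100 genes. S100a4 had 8.54, 7.17 and 14.1 CPM in DMSO and 105, 59.4 and 42.5 CPM in bortezomib (log2 fold change 2.79 ± 0.46 SE, adjusted p = 0.00352). S100a6 had 85.4, 96.95 and 132 CPM in DMSO and 493, 367 and 362 CPM in bortezomib (log2 fold change 1.96 ± 0.31 SE, adjusted p = 0.00281). Dynll1, a light chain of dynein, the motor that carries cargo along microtubules to their minus ends, had 163, 149 and 179 CPM in DMSO and 673, 625 and 509 CPM in bortezomib (log2 fold change 1.88 ± 0.27 SE, adjusted p = 0.00229). Mt1, the metal-binding metallothionein, had 12.3, 14.2 and 10.8 CPM in DMSO and 52.2, 41.6 and 51.8 CPM in bortezomib (log2 fold change 1.96 ± 0.36 SE, adjusted p = 0.00419). Lgals3, a galectin, had 6.35, 5.09 and 9.15 CPM in DMSO and 17.4, 17.01 and 39.3 CPM in bortezomib (log2 fold change 1.83 ± 0.36 SE, adjusted p = 0.00533), but an adjusted p of 0.077 with all 21 libraries in the fit. Id1, an inhibitor of basic helix-loop-helix factors, had 7.88, 3.14 and 7.52 CPM in DMSO and 38.1, 32.02 and 34.8 CPM in bortezomib (log2 fold change 2.50 ± 0.59 SE, adjusted p = 0.0129) and did not pass without WT DMSO 2 or WT bortezomib 1 (adjusted p = 0.069 and 0.0519). The lack of overlap in these 6 genes was required by the rule that chose them.

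The largest falls by the same rule included Efcc1, at 36.5, 42.2 and 18.2 CPM in DMSO and 1.83, 9.88 and 4.17 CPM in bortezomib (log2 fold change -2.62 ± 0.51 SE, adjusted p = 0.00564). Bbs4, of the complex that carries proteins into cilia, had 27.96, 18.2 and 19.1 CPM in DMSO and 3.32, 5.35 and 3.98 CPM in bortezomib (log2 fold change -2.37 ± 0.34 SE, adjusted p = 0.00207). Tcp11l2 had 160.1, 218 and 172 CPM in DMSO and 28.8, 41.2 and 61.1 CPM in bortezomib (log2 fold change -2.07 ± 0.25 SE, adjusted p = 0.00193). Pygm, a glycogen phosphorylase, had 75.7, 73.5 and 63.2 CPM in DMSO and 15.1, 14.8 and 30.8 CPM in bortezomib (log2 fold change -1.81 ± 0.27 SE, adjusted p = 0.00248). Scaper had 31.01, 28.6 and 30 CPM in DMSO and 7.02, 7.83 and 8.40 CPM in bortezomib (log2 fold change -1.95 ± 0.27 SE, adjusted p = 0.00193). By size in CPM among called protein-coding genes whose groups did not overlap, the adhesion receptor gene Adgrg1, which is high in HSCs, fell most, from 3197, 3325 and 2943 CPM in DMSO to 1607, 1900 and 1690 CPM in bortezomib (log2 fold change -0.86 ± 0.15 SE, adjusted p = 0.004). For these 6 genes too, no overlap between the groups was a condition of being chosen.

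Of 509 tested lincRNAs 9 rose and 25 fell, and of 427 antisense genes 4 rose and 18 fell. The strand setting of the counting is not given, so antisense genes cannot be told apart from their partners. Among non-coding genes of at least 5 CPM, Gm19590 fell from 218, 226 and 238 CPM in DMSO to 32.9, 55.3 and 88.96 CPM in bortezomib (log2 fold change -1.95 ± 0.32 SE, adjusted p = 0.00328). 4930481A15Rik fell from 36.6, 32.8 and 40.8 CPM in DMSO to 11.3, 11.4 and 11.2 CPM in bortezomib (log2 fold change -1.70 ± 0.26 SE, adjusted p = 0.00281). Bvht rose from 0.661, 2.04 and 1.32 CPM in DMSO to 7.42, 4.91 and 6.86 CPM in bortezomib (log2 fold change 2.25 ± 0.38 SE, adjusted p = 0.00361), and its call was lost with all 21 libraries in the fit (adjusted p = 0.131).

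Markers of other marrow cells were counted in the same libraries. None of 8 tested neutrophil markers was called by edgeR (0 at an unadjusted p under 0.05, 0 by DESeq2, 1 by limma voom), Mmp8 and Fcnb were at 0 in all 6 libraries, and the summed level was 197 to 293 CPM in DMSO and 252 to 376 CPM in bortezomib. Macrophage and monocyte markers had 1 of 20 higher and 1 lower, with sums of 902 to 1138 and 875 to 1259 CPM. Cd68, the lysosomal marker that rose, had 22.7, 22.9 and 18.3 CPM in DMSO and 52.9, 45.96 and 62.7 CPM in bortezomib (log2 fold change 1.34 ± 0.19 SE, adjusted p = 0.00193). Erythroid markers had 2 of 13 higher and 1 lower, with sums of 2228 to 2483 and 2036 to 2158 CPM.

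Lymphoid markers were low. T and NK cell markers had 1 of 5 higher and 1 lower, with sums of 98.2 to 101.9 and 157 to 225 CPM, which do not overlap, while Cd3e, Cd3g, Cd8a, Klrd1, Ncr1 and Gzma were at 0 in all 6 libraries. B cell markers had 1 of 5 lower, with sums of 74.3 to 97.4 and 70.1 to 91.8 CPM, and Ms4a1, Pax5, Ebf1 and Igll1 were at 0. Dendritic cell and MHC class II markers had 1 of 12 higher, with sums of 674 to 857 and 474 to 603 CPM, and Cd209a, Siglech and Ccr9 were at 0. Megakaryocyte and platelet markers had 2 of 15 lower, with sums of 2633 to 2787 and 2062 to 2403 CPM. Mast cell markers had 1 of 4 lower, Kit, which the HSC list also holds, with sums of 704 to 1015 and 368 to 492 CPM and Mcpt8, Prss34, Tpsb2, Cma1 and Il1rl1 at 0. Endothelial and stromal markers had 2 of 11 higher and 2 lower, with sums of 141 to 175 and 157 to 202 CPM, and Cdh5, Col3a1 and Adipoq were at 0. Multipotent progenitor markers had 1 of 8 higher, Cd48, with sums of 924 to 1056 and 812 to 1115 CPM. The erythroid, dendritic, megakaryocyte and mast cell sums in bortezomib also lay below those in DMSO with no overlap. Single genes made up most of some sums: Kit of the mast cell sum, Car2 of the erythroid sum and Nkg7 of the T and NK cell sum. With TMM over all 21 libraries, the WT DMSO and WT bortezomib means were 2145 and 1778 CPM for Car2 and 73.0 and 161 CPM for Nkg7. Of the 13 tested erythroid markers 7 had a positive log2 fold change and 6 a negative one. The part of other cells in the gene lists above was not tested.

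The 9 untreated reporter libraries give the range of levels in untreated HSCs, on a TMM scale over all 21 libraries. They are of another genotype and were sorted by reporter colour. For 199 of the 1287 genes that rose (15.5%), all 3 WT bortezomib libraries lay above all 9 untreated libraries, and for 157 of the 1221 that fell (12.9%) they lay below all 9. Over the 16149 tested genes with a level on that scale, called or not, they lay above all 9 for 381 (2.36%) and below all 9 for 330 (2.04%). The called genes were chosen with these same bortezomib libraries, so their larger shares are in part built in and are not a separate result. The mean of WT DMSO lay within the untreated range for 974 and 839 of the genes that rose and fell, and the mean of WT bortezomib for 629 and 880. Cycs was at 64.7 to 187 CPM in the untreated libraries (median 84.5), beside means of 63.2 CPM in WT DMSO and 205 CPM in WT bortezomib. Psmb3 was at 229 to 466 CPM untreated, above the WT DMSO mean of 197 CPM, with WT bortezomib at 476 CPM. For Kit the untreated range, 224 to 1106 CPM, held the means of both WT DMSO (882 CPM) and WT bortezomib (395 CPM). Tcp11l2 was at 49.4 to 232 CPM untreated, and at 181 and 42.4 CPM in WT DMSO and WT bortezomib.

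The same drug was given to knockout-labelled mice, and the difference between the 2 responses was tested in the same fit. Atg5 was not lower in the knockout-labelled libraries: it had 112 ± 3.77 CPM in knockout-labelled DMSO and 111 ± 27.2 CPM in knockout-labelled bortezomib, beside 56.5 ± 17.4 and 103 ± 31.6 CPM in wild type (SD, n = 3 each). The deleted exons are not counted on their own in the table, so these gene counts do not check the deletion. The Xist share was 0.235% to 0.987% in knockout-labelled DMSO and 100%, 0% and 3.51% in knockout-labelled bortezomib. In the DMSO libraries genotype and this share cannot be told apart.

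In knockout-labelled HSCs 586 genes changed (3.63%), 326 higher and 260 lower. Of these, 176 were also called in wild type: 118 in the same direction (4.7% of the wild-type and 20.1% of the knockout-labelled calls, 73 higher and 45 lower) and 58 in the opposite one. Of all 2508 wild-type calls, 1168 (46.6%) had a log2 fold change of the same sign in knockout-labelled HSCs, called there or not. They were 551 of the 1287 genes that rose and 617 of the 1221 that fell. The responses differed for 1462 genes (9.05%), 999 of them called in wild type. This number was 276 with the Xist share as a covariate and 4015 without the 3 libraries numbered 3. It fell to 741, 416, 397 and 681 without WT DMSO 1, WT DMSO 2, WT bortezomib 1 and WT bortezomib 2, and to 613, 352, 768 and 622 without knockout-labelled DMSO 1 and 2 and knockout-labelled bortezomib 1 and 2. It was 2820 without knockout-labelled bortezomib 3.

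**Figure D4:**
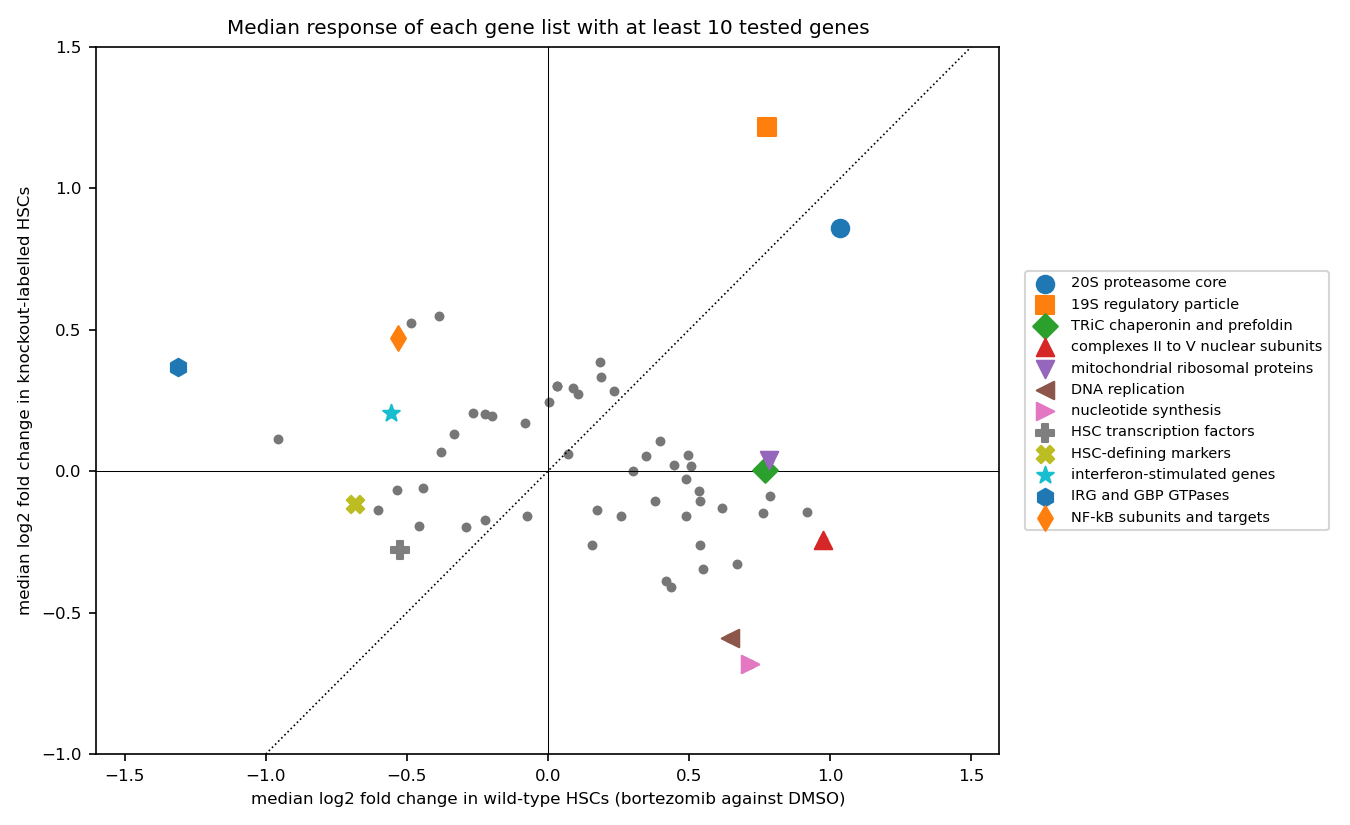
Median log2 fold change (bortezomib against DMSO) of each gene list with at least 10 tested members in wild-type HSCs (horizontal) and in knockout-labelled HSCs (vertical); coloured symbols name 12 lists, grey points are other lists, and the dotted line marks equal medians. The 2 proteasome lists are high on both axes, at 1.03 and 0.86 for the core and 0.78 and 1.22 for the 19S particle, while complexes II to V lie at 0.97 and -0.24.

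The proteasome rose in both genotypes. In knockout-labelled HSCs 10 of 14 core genes and 16 of 18 19S genes rose, with medians of 0.86 and 1.22, and the responses differed for 3 of the 19S genes, each more in the knockout-labelled libraries. For the core genes edgeR called none different (1 at an unadjusted p under 0.05, 0 by DESeq2, 9 by limma voom). None of the genes of TRiC and prefoldin, of the mitochondrial ribosome, of complex I or of complexes II to V was called in knockout-labelled HSCs by edgeR, and their medians were 0.00, 0.04, -0.14 and -0.24. At an unadjusted p under 0.05 these lists had 0, 7, 0 and 5 genes, DESeq2 called 0, 2, 0 and 1, and limma voom called 1, 8, 6 and 13. The response was higher in wild type for 5 of 14, 19 of 76, 15 of 37 and 29 of 39 of them by the test of the difference. Nucleotide synthesis had 6 genes lower in knockout-labelled HSCs (median -0.68) and DNA replication 9 lower (median -0.59), and the responses differed for 20 of 31 and 25 of 39.

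In lists with falls in wild type, counted over all tested members, the responses differed for 11 of 46 interferon-stimulated genes, 6 of 15 IRG and GBP genes and 10 of 30 NF-kB genes. Each of these differences was lower in wild type. Medians of these lists in knockout-labelled HSCs were 0.21, 0.37 and 0.47. HSC transcription factors differed in 4 of 37, near the 9.05% over all genes, and HSC surface genes in 8 of 32, 2 of them higher in wild type. Sqstm1, not called in wild type, had a knockout-labelled log2 fold change of 1.84, and the responses differed by -2.34 (adjusted p = 0.00384). Kit and Angpt1 had log2 fold changes of -0.71 and -0.97 in knockout-labelled HSCs (adjusted p = 0.0504 and 0.00275), and the test of the difference gave adjusted p of 0.355 and 0.583. Tcp11l2, which changed by -2.07 on the log2 scale in wild type, had a log2 fold change of 0.33 in knockout-labelled HSCs (adjusted p = 0.544 there, and of the difference = 0.00356).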

How the data were processed

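Gene counts of HSC libraries (SMART-seq2) were deposited by the authors as raw counts per gene. Bowtie 1.0.0, STAR 2.6.1 and HTSeq 0.7.1 and the builds GRCm38.p4 and GRCh38 are named in the submitters' processing notes, with no roles, annotation release or strand setting. All 21 columns were matched to samples by name. The 12 treatment libraries were fitted together with edgeR 4.0.16 (quasi-likelihood test, TMM, filterByExpr; R 4.3.3), with contrasts for each genotype and for their difference, and p-values were adjusted by Benjamini-Hochberg over 16149 genes. In every sentence an adjusted p comes from this test. Alternatives used DESeq2 1.42.0, limma 3.58.1 (voom) and other filters, scalings, covariates and subsets. The fit was tested on simulated data. There it called 44% of genes changed 2-fold and 95% of those changed 4-fold, with 12 false calls. No replicate pair agreed within sampling noise (chi-square per degree of freedom 11.9 or more).

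Gene lists and members were chosen with earlier results of these data known. Named genes are the sort genes, Atg5 and Sqstm1, the 10 largest changes per direction by log2 fold change (at least 20 CPM, no overlap) and by CPM, the 5 smallest p per direction, up to 4 called and the 2 highest members of each list, 3 non-coding genes per direction (at least 5 CPM) and the 8 strongest differences between genotypes; other genes are named as list members. Some genes that the rule names are not reported here. Coordinates are from GENCODE on GRCm38, and promoter sequences from RefSeq on GRCm38.p6.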

Additional observations from a re-analysis of the deposited data

Results flagged for a closer look

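Genes named in the text whose response to bortezomib differed between wild-type and knockout-labelled HSCs, by the test of the difference itself (adjusted p under 0.05), are given here with the wild-type log2 fold change minus the knockout-labelled one. Opposite signs in the 2 genotypes were not required. The sex mix of the libraries differed between the genotypes, and its part was not tested beyond the Xist covariate.

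The difference was positive for Atp5g3 (1.53), Birc5 (1.40), Ccne1 (3.05), Ccne2 (2.25), Cct6a (1.20), Cd48 (2.78), Cdk1 (1.63), Chek1 (2.47) and Cks1b (1.62). It was also positive for Cox5a (1.73), Ctps (1.86), Cycs (2.08), Ddx39 (1.65), Dynll1 (1.61), Eif2s1 (1.33), Eif4a1 (1.53), Hist1h1b (2.27) and Idh3a (1.23). It was also positive for Ldha (1.21), Mrpl20 (1.33), Mthfd2 (2.32), Ndufab1 (1.46), Nhp2 (1.73), Phb2 (1.32), Phf5a (1.37), Phgdh (1.73) and Psat1 (1.88). It was also positive for Psme2 (1.38), Ptges3 (0.93), Rfc5 (1.46), Rpl27 (1.12), Sae1 (1.10), S100a4 (2.31), S100a6 (1.88), Slc25a5 (1.86), Slc7a5 (1.40) and Snrpd1 (1.78). It was also positive for Srsf10 (1.22), Srsf7 (1.63), Ssr4 (1.13), Tcp1 (1.25), Timm23 (1.18), Tra2b (1.16), Txn1 (1.15), Uba2 (0.93) and Uqcrq (1.73).

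The difference was negative for Atg14 (-1.17), Bbs4 (-2.68), Birc3 (-1.92), Bvht (-2.92), Calcoco1 (-1.96), Ddit3 (-2.01), Ddx58 (-1.21), Ezh1 (-1.52) and Gadd45a (-2.27). It was also negative for Gbp10 (-8.10), Gbp2 (-2.19), Irf2 (-1.13), Klf6 (-1.98), Kmt2e (-1.21), Nkx2-3 (-1.30), Osgin1 (-2.77), Ppp1r15a (-2.61) and Rb1cc1 (-1.64). It was also negative for Rbl2 (-0.85), Robo4 (-1.77), Rsad2 (-2.42), Scaper (-1.91), Sqstm1 (-2.34), Tcp11l2 (-2.40), Tek (-1.55), Txnip (-1.52) and Ubb (-1.18). It was also negative for mt-Nd5 (-0.93) and mt-Nd6 (-1.06). Xist (-7.23) passed the same threshold. Its share was 0.235% to 0.987% in knockout-labelled DMSO and 100%, 0% and 3.51% in knockout-labelled bortezomib. The Xist value therefore follows the sex mix of the libraries and is not read as a response to bortezomib.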

How the results depend on the processing

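The number of genes called in wild-type HSCs was 2508, and 6234 with limma voom, 3961 without the 3 libraries numbered 3, 1629 with the Xist share as a covariate and 1533 with all 21 libraries in the fit; leaving out 1 library gave 588 to 2762. In knockout-labelled HSCs 586 were called, against 1238 with DESeq2, 1577 with limma voom, 1085 with no filter on low counts, 1902 without the 3 libraries, 972 with length and GC offsets and the replicate block and 349 with all 21 libraries, and 182 (without knockout-labelled DMSO 2) to 1040 (without knockout-labelled bortezomib 3) when 1 library was left out. The 1462 genes whose responses differed became 2443, 4862, 2319, 4015, 2400 and 850 under these same settings in the same order, 276 with the Xist share as a covariate, and 352 to 2820 with 1 library left out. The cause was not tested, apart from the smaller number of libraries when some are left out. Correlations of deviations from the group mean between WT DMSO and WT bortezomib libraries were -0.0548 to 0.0413. For libraries of the same number they were 0.0012, 0.0307 and 0.0413. With 3 libraries per group these values cannot show whether libraries of the same number share a batch. The replicate block gave 3039, 780 and 1889 genes. Wild-type calls with the other alternatives, DESeq2 (3485), relative log expression size factors (2509), no filter (3172), length and GC offsets (2802) and the 6 wild-type libraries alone (2937), stayed within 1.5 times.

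Of 119 genes named and called, 98 kept their call with each wild-type library left out and 94 in all 17 alternatives. Of 54 list counts of at least 3 called genes in 1 direction, 32 grew by over 1.5 times with limma voom and 13 without the 3 libraries numbered 3, and 16 shrank by over 1.5 times with the Xist share as a covariate and 15 with all 21 libraries in the fit. With length and GC offsets 9 grew and 6 shrank, and without WT DMSO 1, WT DMSO 2, WT bortezomib 1 and WT bortezomib 2 45, 47, 51 and 32 shrank. A list median was counted as changing sign only if its size was at least its SD between the 3 bortezomib libraries. By this rule 4 lists changed sign. They were the NRF1 pathway (0.04003 with length and GC offsets, 0.03883 with the block added) and the BCL2 family (0.04282 without the 3 libraries). The others were SR proteins (-0.01654 with limma voom, and -0.05492 to 0.1315 with 1 wild-type library left out) and WNT and Notch genes (0.0123 with offsets, 0.08643 with the block added). Medians smaller than that SD changed sign in further lists. Among these were cholesterol synthesis (from -0.07 to 0.07 with offsets) and erythroid markers (from 0.09 to -0.19 without the 3 libraries). With 3 libraries per group, and depths of 18691529 to 31481691 counts in wild type, a missing call does not show that a gene did not change.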
